A study of Homo sapiens with 6 samples.

Results

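The genes described here encode the enzymes and carriers of fatty acid oxidation, together with genes known to respond to the PPAR nuclear receptors and the PPARGC1 coactivators. They were chosen by name, 31 of the 21533 genes in the deposited tables. RNA was sequenced from LX-2 cells, a line of immortalised hepatic stellate cells from human liver, in 3 samples given control siRNA and 3 given PERK siRNA. All 6 then received palmitic acid, a saturated fatty acid, and RNA was taken 24 h later, so the control samples are palmitate-treated as well and no sample without palmitate was analysed here. The series concerns PERK, a stress sensor of the endoplasmic reticulum encoded by EIF2AK3, in stellate cells and liver cancer. Every sample came from 1 cell line, and neither the siRNA sequences nor the palmitate dose were known here. The labels do not tell whether replicates were grown as separate cultures. The p-values therefore rest on the spread among these 6 samples alone, and that spread may be technical.

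Long-chain fatty acids enter mitochondria as carnitine esters, through CPT1 on the outer membrane, the carrier SLC25A20 and CPT2 on the inner membrane. A cycle of dehydrogenation, hydration, a further dehydrogenation and thiolysis then shortens the chain, and part of its electrons reach the respiratory chain through the electron transfer flavoprotein. Peroxisomes shorten very long and branched chains with a parallel set of enzymes that begins with an acyl-CoA oxidase. Fatty acids can act as PPAR ligands, and the known targets of these receptors include CPT1A, PDK4 and ANGPTL4.

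The libraries held 17937141 to 19585872 total exon reads. A floor of 3 reads equalled 0.153 to 0.167 reads per 1000000 total exon reads of a library, a limit that covers counting error only. The CPM values below are a gene's reads per 1000000 reads of the genes kept for testing, scaled by edgeR's TMM normalisation factors. The targeted EIF2AK3 had 12.9, 12.98 and 13.9 CPM in control samples and 4.37, 4.96 and 5.52 CPM with PERK siRNA (log2 fold change -1.42 with SE 0.10 and edgeR adjusted p = 3.0e-13). The 11 stellate and mesenchymal markers, mostly VIM and COL1A1, summed to 6349 to 6610 CPM in control samples and 7039 to 7108 CPM with PERK siRNA, with DES at or under the floor in every sample and LRAT averaging 0.14 CPM in control samples. Of the 9 of these tested, 5 rose and 3 fell, where 69.5% of all genes tested were called in either direction. By edgeR's fitted folds ACTA2 rose 3.86-fold, TAGLN 3.28-fold and COL1A2 2.30-fold, while COL3A1 fell to 53.8% and PDGFRA to 37.6% of control. Of TAGLN reads 61.3% were uniquely placed, and of PDGFRA reads 80.8%. The 8 hepatocyte markers, mostly SERPINA1, summed to 4.13 to 5.44 CPM in control samples and 3.68 to 4.37 CPM with PERK siRNA, with ALB, APOA1, APOB, TTR, CYP3A4 and HNF4A at 0 in every sample. The 5 adipocyte markers summed to 0.102 to 0.448 CPM over the 6 samples, with ADIPOQ and LEP at 0. The 6 macrophage and leukocyte markers, mostly CD68, summed to 77.7 to 80.5 CPM in control samples and 72.6 to 75.4 CPM with PERK siRNA, with MARCO and CD163 at 0. The 5 endothelial markers, mostly PECAM1 in control samples, summed to 9.92 to 10.04 CPM there and 0.953 to 1.82 CPM with PERK siRNA, with LYVE1 at 0, and the 4 cholangiocyte markers, mostly SOX9, to 129.7 to 138.9 and 86.2 to 97.7 CPM. The part of these markers in the results below was not tested. In bulk RNA, fewer cells of a type and less RNA per cell cannot be told apart.

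Of the 31 genes, 30 had enough reads to be tested, and 15 rose and 7 fell with PERK siRNA. That is 73.3% called at an adjusted p under 0.05 by edgeR's quasi-likelihood test, near the 69.5% called among all 12973 genes tested. By direction, 34.4% of all genes were called higher and 35.0% lower. Counts called in the smaller groups of genes below stand against these shares. The median log2 fold change of the 30 genes was 0.15, against 0.00 for all genes, and the median size of the change in either direction was 0.27 against 0.28. The CPM values of the groups did not overlap for 22 of the 30, against 71.8% of all genes. A test against a 1.2-fold change was passed by 11 of the 30, 7 higher and 4 lower, against 36.1% of all genes. The 11 were CPT1A, CPT1C, ACADM, HADHB, HADH, ACAA2, ETFB, PDK2, ANGPTL4, UCP2 and TXNIP. ANGPTL4 was the 1 gene of the 30 that changed by at least 2-fold, a size reached by 8.18% of all genes.

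**Figure D1:**
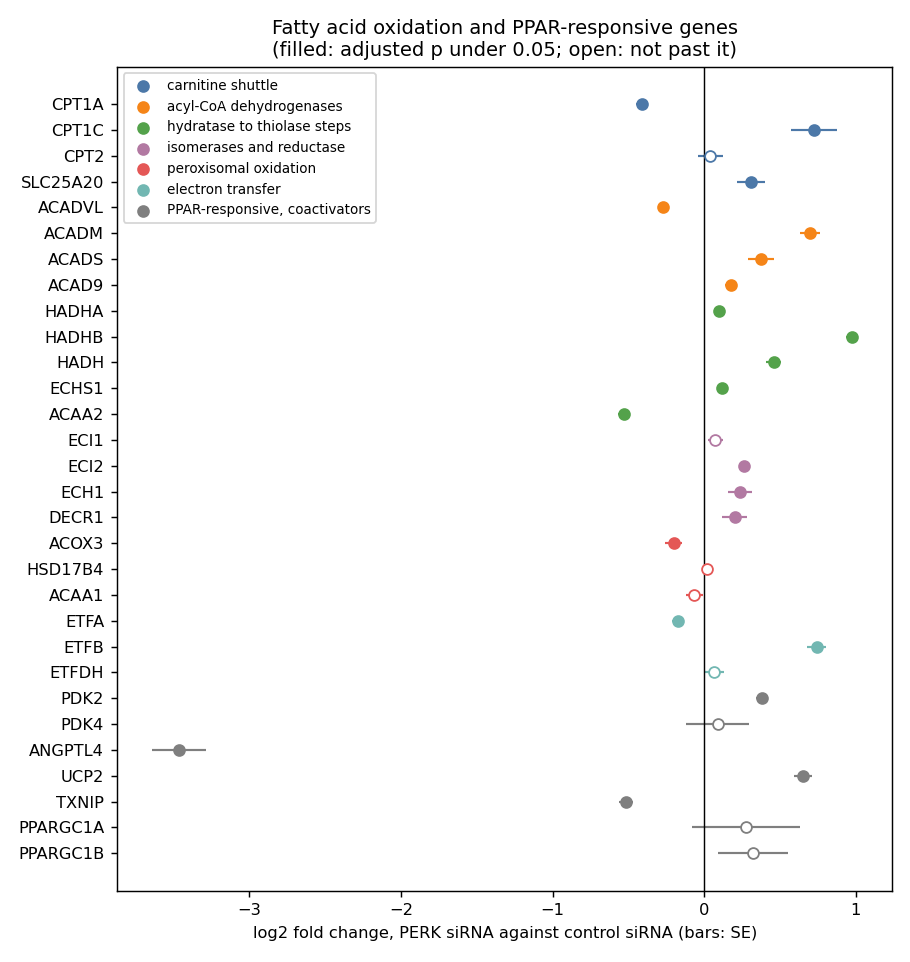
Log2 fold change (PERK siRNA against control siRNA, bars SE) of the 30 tested genes, coloured by role. Filled points passed an adjusted p of 0.05 and open points did not. Apart from ANGPTL4 at -3.46, the genes lie between -0.53 and 0.97.

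**Figure D2:**
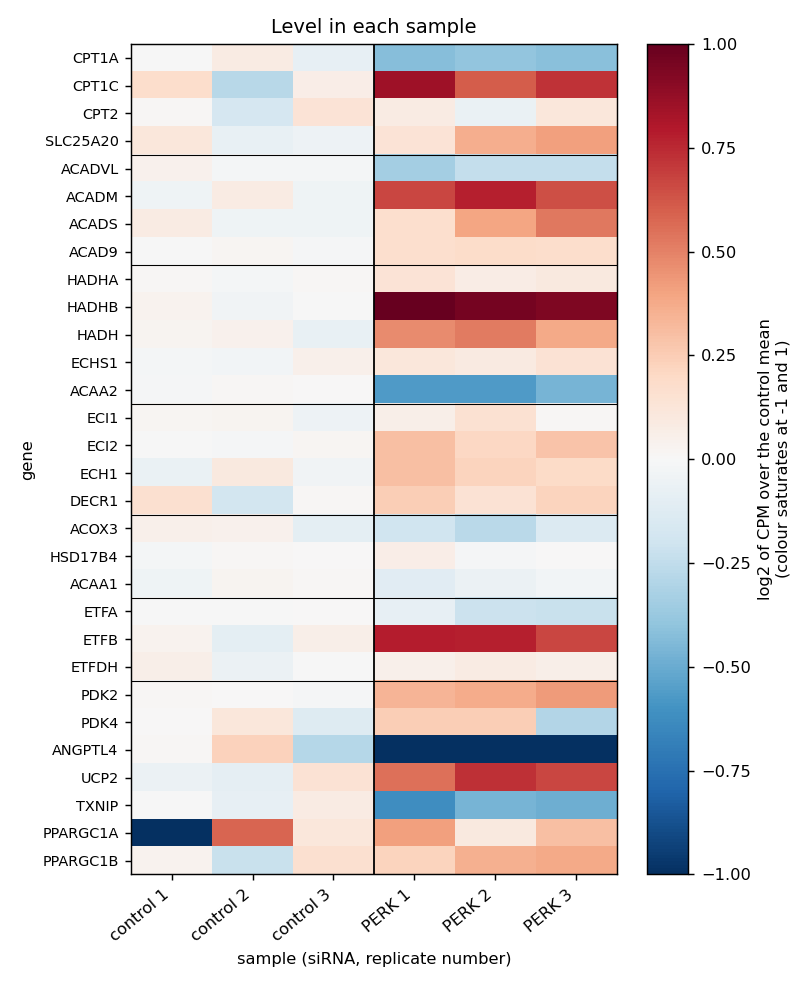
CPM of each of the 30 tested genes in each of the 6 samples, as log2 over that gene's control mean, with genes in rows grouped by role and samples in columns. HADHB, ETFB and ACADM are red and ANGPTL4 and ACAA2 blue in all 3 PERK siRNA columns, while the 3 control columns differ widely for PPARGC1A.

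The carnitine shuttle changed in both directions: SLC25A20 rose, CPT1A fell and CPT2 did not pass the test. CPT1C, grouped with them here as a relative of CPT1A, also rose. The changes of CPT1A and CPT1C passed the test against a 1.2-fold change, and that of SLC25A20 did not. CPT1A (chr11:68754620-68844410, minus strand, GRCh38 with GENCODE v29), the liver-type outer-membrane enzyme that controls entry of long chains, had 94.7, 101 and 89.6 CPM in control samples and 70.7, 72.3 and 71.02 CPM with PERK siRNA. Its groups did not overlap, and the mean fell from 94.98 ± 5.53 to 71.4 ± 0.84 CPM as mean ± SD of 3 samples (log2 fold change -0.41 with SE 0.04 and edgeR adjusted p = 1.4e-10). CPT1C, a brain-enriched relative found on the endoplasmic reticulum with little transferase activity, was far scarcer, at 3.31, 2.41 and 3.05 CPM in control samples and 5.27, 4.45 and 4.84 CPM with PERK siRNA. All 3 PERK siRNA samples were above all 3 controls (log2 fold change 0.72 with SE 0.15 and edgeR adjusted p = 0.00012). SLC25A20, which exchanges acylcarnitine for carnitine across the inner membrane, had 10.8, 9.49 and 9.63 CPM in control samples and 10.9, 12.8 and 13.2 CPM with PERK siRNA. Its lowest PERK siRNA sample lay just above its highest control (log2 fold change 0.31 with SE 0.09 and edgeR adjusted p = 0.004). CPT2, which reforms the acyl-CoA in the matrix, had 14.2, 12.5 and 15.5 CPM in control samples and 14.9, 13.5 and 15.2 CPM with PERK siRNA, and its groups overlapped (log2 fold change 0.04 with SE 0.08 and edgeR adjusted p = 0.67). The TPM ratio of CPT2 to CPT1A was 0.313, 0.259 and 0.360 in control samples and 0.438, 0.387 and 0.446 with PERK siRNA, 1.36 times higher on average, with no overlap (exact two-sided permutation test p = 0.1, the smallest that 3 against 3 allows). This pair was chosen after its values were seen. CPT1B, the muscle form and no member of the set, had 1.02, 1.34 and 1.55 CPM in control samples and 1.57, 1.64 and 1.35 CPM with PERK siRNA, with 24.8% of its reads uniquely placed (log2 fold change 0.22 with SE 0.25 and edgeR adjusted p = 0.44).

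The acyl-CoA dehydrogenases catalyse the first step of the mitochondrial cycle, each for a range of chain lengths. Those for medium and short chains rose and that for very long chains fell. Of these, only the medium-chain change passed the test against a 1.2-fold change. ACADVL (chr17:7217125-7225273, plus strand), the very-long-chain enzyme of the inner membrane, had 139, 133 and 133 CPM in control samples and 107, 115 and 115 CPM with PERK siRNA. Every PERK siRNA sample was below every control (log2 fold change -0.27 with SE 0.03 and edgeR adjusted p = 1.7e-08). ACADM (chr1:75724347-75787575, plus strand), the medium-chain enzyme, had 14.9, 16.3 and 14.9 CPM in control samples and 24.4, 26.4 and 23.99 CPM with PERK siRNA. Its mean went from 15.4 ± 0.78 to 24.9 ± 1.27 CPM as mean ± SD of 3 samples with no overlap (log2 fold change 0.70 with SE 0.07 and edgeR adjusted p = 1.3e-10). ACADS, the short-chain enzyme, had 12.4, 11.3 and 11.3 CPM in control samples and 13.1, 15.3 and 16.8 CPM with PERK siRNA, also without overlap (log2 fold change 0.37 with SE 0.09 and edgeR adjusted p = 0.00042). ACAD9, which also serves in the assembly of respiratory complex I, had 49.9, 50.8 and 49.6 CPM in control samples and 56.3, 56.8 and 56.7 CPM with PERK siRNA. That rise was small and its groups did not overlap (log2 fold change 0.18 with SE 0.04 and edgeR adjusted p = 0.00024). Exons of KIAA1257 cover 10.5% of its exon bases. ACADL, the long-chain enzyme, had 0 to 1 reads in each sample and was not tested. By TPM, which divides by gene length, ACADVL was the most abundant of the 5 in control samples at 177 TPM, against 7.49 for ACADM and 20.3 for ACADS.

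In the steps from hydratase to thiolase, 4 of the 5 genes rose and the thiolase ACAA2 fell (100% called, against 69.5% of all genes tested). The changes of HADHA and ECHS1 did not pass the test against a 1.2-fold change. HADHA (chr2:26190635-26244726, minus strand) and HADHB (chr2:26243170-26290468, plus strand) encode the alpha and beta subunits of the mitochondrial trifunctional protein, the first with hydratase and dehydrogenase activity and the second with thiolase activity, for long chains. The genes lie head to head, and these GENCODE spans overlap from 26243170 to 26244726, with 0% of exon bases shared. Their RefSeq starts on GRCh38.p14, at positions 26244632 and 26244939, are 307 bases apart on opposite strands. HADHB had 55.7, 53.2 and 54.4 CPM in control samples and 111, 105 and 104 CPM with PERK siRNA. Its mean went from 54.4 ± 1.27 to 107 ± 3.91 CPM as mean ± SD of 3 samples, the largest rise among the 30 genes (log2 fold change 0.97 with SE 0.04 and edgeR adjusted p = 1.1e-19). HADHA had 237, 232 and 238 CPM in control samples and 259, 248 and 252 CPM with PERK siRNA, a much smaller rise without overlap (log2 fold change 0.10 with SE 0.03 and edgeR adjusted p = 0.0011). The TPM ratio of HADHB to HADHA was 0.294, 0.287 and 0.286 in control samples and 0.539, 0.532 and 0.517 with PERK siRNA, 1.83 times higher on average, with no overlap (exact two-sided permutation test p = 0.1, the smallest that 3 against 3 allows). The pair was chosen for this ratio after its values were seen. HADHA remained the more abundant transcript of the pair in all 6 samples.

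HADH, the dehydrogenase for medium and short chains, had 35.6, 35.9 and 33.2 CPM in control samples and 48.4, 50.1 and 45.4 CPM with PERK siRNA, with every PERK siRNA sample above every control (log2 fold change 0.46 with SE 0.05 and edgeR adjusted p = 1.5e-09). ECHS1, the short-chain enoyl-CoA hydratase, had 115, 115 and 121 CPM in control samples and 127, 124 and 129 CPM with PERK siRNA. It was the most abundant of the 31 genes by TPM in control samples, at 319 TPM, and its rise was small (log2 fold change 0.12 with SE 0.03 and edgeR adjusted p = 0.0013). ACAA2, the matrix thiolase, had 69.4, 70.6 and 70.2 CPM in control samples and 47.4, 47.3 and 50.8 CPM with PERK siRNA. The groups were far apart relative to their spread (log2 fold change -0.53 with SE 0.04 and edgeR adjusted p = 9.5e-13). Of its reads 84.02% were uniquely placed, and on unique reads alone its log2 fold change was -0.52. Of the 10 dehydrogenase, hydratase and thiolase genes of the mitochondrial cycle, 9 were tested, and 7 rose and 2 fell. That is 100% called, against 69.5% of all genes tested (34.4% higher and 35.0% lower). Of these 9, only ACADM, HADHB, HADH and ACAA2 passed the test against a 1.2-fold change, which 36.1% of all genes passed. Whether so few genes differ from all genes was not tested.

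Unsaturated fatty acids need isomerases and a reductase besides the cycle itself, and 3 of these 4 genes rose (75% called, against 69.5% of all genes tested). ECI2, an enoyl-CoA isomerase of mitochondria and peroxisomes, had 79.3, 79.1 and 80.6 CPM in control samples and 97.9, 91.7 and 96.9 CPM with PERK siRNA, with no overlap (log2 fold change 0.26 with SE 0.03 and edgeR adjusted p = 1.1e-07). Of its exon bases 27.1% also belong to exons of C6orf201. ECH1, a dienoyl-CoA isomerase of both organelles, had 11.7, 13.1 and 12.01 CPM in control samples and 15.2, 14.3 and 14.05 CPM with PERK siRNA (log2 fold change 0.24 with SE 0.08 and edgeR adjusted p = 0.0086). Only 71.4% of ECH1 reads were uniquely placed, and on those the log2 fold change was 0.28. DESeq2 did not call ECH1 (adjusted p = 0.059). DECR1, the mitochondrial dienoyl-CoA reductase, had 15.1, 11.9 and 13.6 CPM in control samples and 16.03, 14.9 and 15.8 CPM with PERK siRNA, with the highest control above the lowest PERK siRNA sample (log2 fold change 0.20 with SE 0.08 and edgeR adjusted p = 0.03). DESeq2 did not call DECR1 (adjusted p = 0.11), and the call was also lost, by edgeR's test, without PERK siRNA sample 1 (adjusted p = 0.094), PERK siRNA sample 3 (0.071), control sample 2 (0.22) or control sample 3 (0.055). ECI1, the mitochondrial isomerase, was not called, with 38.8 ± 1.10 and 40.8 ± 2.07 CPM as mean ± SD of 3 samples in control and PERK siRNA samples (log2 fold change 0.07 with SE 0.05 and edgeR adjusted p = 0.17).

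The electron transfer flavoprotein collects electrons from the acyl-CoA dehydrogenases, and its paired subunits moved in opposite directions. Only the change of the beta subunit passed the test against a 1.2-fold change. ETFB (chr19:51345169-51366418, minus strand), the beta subunit, had 16.6, 15.1 and 16.9 CPM in control samples and 27.97, 27.7 and 25.8 CPM with PERK siRNA. Its mean went from 16.2 ± 0.94 to 27.1 ± 1.21 CPM as mean ± SD of 3 samples (log2 fold change 0.74 with SE 0.06 and edgeR adjusted p = 1.8e-11), and with 61.5% of its reads uniquely placed the log2 fold change on unique reads was 0.79. ETFA (chr15:76215355-76311472, minus strand), the alpha subunit, had 86.8, 86.8 and 87.1 CPM in control samples and 81.9, 74.7 and 74.6 CPM with PERK siRNA. Here all 3 PERK siRNA samples lay below the controls, which differed little among themselves (log2 fold change -0.17 with SE 0.04 and edgeR adjusted p = 0.00014). ETFDH, which passes the electrons to ubiquinone, had 17.4, 16.1 and 16.8 CPM in control samples and 17.4, 17.8 and 17.5 CPM with PERK siRNA, and was not called (log2 fold change 0.06 with SE 0.07 and edgeR adjusted p = 0.41). The TPM ratio of ETFB to ETFA was 0.260, 0.237 and 0.263 in control samples and 0.464, 0.504 and 0.469 with PERK siRNA, 1.89 times higher on average, with no overlap (exact two-sided permutation test p = 0.1, the smallest that 3 against 3 allows). Of 5 such ratios, for pairs chosen after their values were seen, 4 reached this p (0.125 after Benjamini-Hochberg adjustment over the 5), and that of PDK2 to PDK4 had an exact p of 0.2.

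**Figure D3:**
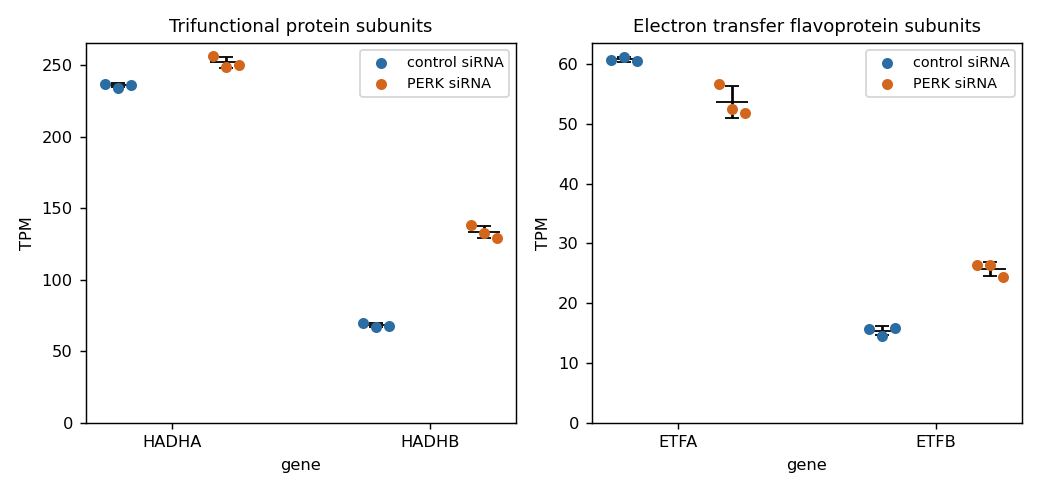
TPM in each sample (points) with group mean and SD (bars, n = 3) for the trifunctional protein subunits and the electron transfer flavoprotein subunits. HADHB and ETFB are higher in all 3 PERK siRNA samples than in any control, HADHA differs little, and ETFA is lower.

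Peroxisomal enzymes of the set changed little. ACOX3, an oxidase of branched chains, had 36.3, 36.3 and 32.8 CPM in control samples and 30.6, 29.1 and 31.9 CPM with PERK siRNA, and it fell (log2 fold change -0.20 with SE 0.05 and edgeR adjusted p = 0.0015). HSD17B4, the bifunctional hydratase and dehydrogenase, had 135, 138 and 137 CPM in control samples and 143, 136 and 137 CPM with PERK siRNA (log2 fold change 0.02 with SE 0.03 and edgeR adjusted p = 0.54). ACAA1, the peroxisomal thiolase, had 27.6, 28.9 and 28.6 CPM in control samples and 26.2, 27.2 and 27.8 CPM with PERK siRNA (log2 fold change -0.06 with SE 0.05 and edgeR adjusted p = 0.29), with 76.3% of reads uniquely placed and 19.7% of its exon bases shared with DLEC1. Neither HSD17B4 nor ACAA1 passed the test, and the groups overlapped for both.

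Between compartments, 10 of the 17 tested mitochondrial genes rose and 4 fell (82.4% called, median log2 fold change 0.12), against 0 of 3 and 1 of 3 for the peroxisomal genes (33.3% called, median -0.06). Of all 12973 genes tested, 69.5% were called, with a median of 0.00. ECI2 and ECH1, of both organelles, rose (median 0.25). With 3 peroxisomal genes, whether the compartments differ was not tested. Summed over the 18 mitochondrial genes, TPM was 1191, 1180.3 and 1180.0 in control samples and 1254, 1264 and 1263 with PERK siRNA. Without HADHB the sum was 1121, 1113 and 1112 in control samples and 1116, 1131 and 1133 with PERK siRNA, and its groups overlapped. Thus 1 gene made most of the net difference, while changes of other genes offset each other in part. For example, mean ECHS1 went from 319 to 345 TPM and mean ACADVL from 177 to 146 TPM. The peroxisomal sum was 144, 148 and 141 in control samples and 137, 136 and 139 with PERK siRNA, without overlap.

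Wider lists of both organelles held changes in both directions. Of 15 other peroxisomal oxidation genes tested, 5 rose and 5 fell (66.7% called, median 0.03). CROT, which makes medium-chain carnitine esters for export, rose from 20.97 ± 1.45 to 30.5 ± 1.67 CPM as mean ± SD of 3 samples (log2 fold change 0.54 with SE 0.06 and edgeR adjusted p = 5.6e-09). ABCD3, a transporter of fatty acyl-CoA into peroxisomes, fell from 96.6 ± 0.81 to 67.1 ± 2.14 CPM as mean ± SD of 3 samples (log2 fold change -0.53 with SE 0.03 and edgeR adjusted p = 5.6e-14). HACL1, a lyase of alpha-oxidation, fell from 22.6 ± 0.87 to 11.3 ± 1.02 CPM as mean ± SD of 3 samples (log2 fold change -0.997 with SE 0.07 and edgeR adjusted p = 7.5e-13). ACOX2 was not tested, at 0.40 CPM in control samples and 0.23 CPM with PERK siRNA on average.

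Of the 15 peroxins, which build peroxisomes, 2 rose and 6 fell (53.3% called, median -0.11). The import receptor gene PEX5 changed by -0.47 on the log2 scale (SE 0.05) and PEX26 by 0.32 (SE 0.04). Of 26 other mitochondrial acyl-CoA genes, 11 rose and 4 fell (57.7% called, median 0.14). ACAD10 (log2 fold change 1.03, SE 0.10), the acyl-CoA synthetase gene ACSF2 (0.75, SE 0.07) and the thioesterase gene ACOT9 (0.47, SE 0.04) were higher, and the acetyl-CoA synthetase gene ACSS1 (-0.87, SE 0.10) was lower.

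**Figure D4:**
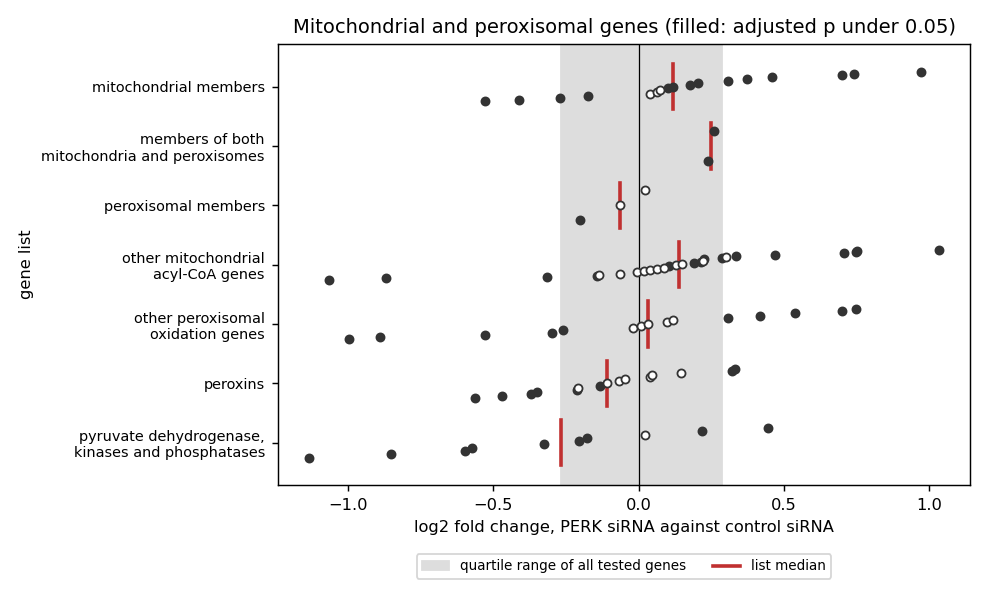
Log2 fold change of each tested gene (points, filled where the adjusted p was under 0.05) by compartment and related list, with list medians in red and the range between the quartiles of all tested genes, -0.27 to 0.29, shaded. The medians of the mitochondrial and peroxisomal members, 0.12 and -0.06, both lie inside the shaded range.

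The PPAR-responsive genes and coactivators did not move as one: of 7, PDK2 and UCP2 rose, ANGPTL4 and TXNIP fell, and PDK4, PPARGC1A and PPARGC1B did not pass the test. Bases upstream of a RefSeq start of each gene that fell are printed because both are known targets of other regulators besides PPARs. They are from RefSeq on GRCh38.p14, whose promoter table held 27 of the 31 genes. Each stretch stops before any GENCODE exon that overlaps its 250-base window. For ANGPTL4 the stretch lies inside the GENCODE gene, which starts at position 8363289, so it is not upstream of the whole gene. In TXNIP (chr1:145996601-145996829, minus strand) capitals mark CACGNG on either strand, the box of the carbohydrate response element, with 4 matches. In ANGPTL4 (chr19:8363905-8364150, plus strand) capitals mark ACGTG on either strand, the core of the hypoxia response element, with 1 match.
TXNIP: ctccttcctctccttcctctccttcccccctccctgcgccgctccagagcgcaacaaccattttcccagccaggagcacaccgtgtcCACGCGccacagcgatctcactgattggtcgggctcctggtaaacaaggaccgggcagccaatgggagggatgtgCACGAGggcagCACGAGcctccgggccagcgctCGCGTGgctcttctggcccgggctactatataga
ANGPTL4: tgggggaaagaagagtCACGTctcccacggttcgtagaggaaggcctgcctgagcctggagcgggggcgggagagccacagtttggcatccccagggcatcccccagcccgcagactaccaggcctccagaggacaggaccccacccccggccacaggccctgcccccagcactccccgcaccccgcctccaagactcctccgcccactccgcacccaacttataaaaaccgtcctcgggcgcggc

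Over 35116 promoter windows of 250 bases upstream of a start, 26.7% held CACGNG and 18.5% held ACGTG on either strand. Of the 27 genes, 10 and 9 held them in any of their windows, a count by gene that is not comparable with a share of windows. A pair of CACGNG boxes with 5 bases between them was in 0.0456% of windows and, among the 27 genes, in TXNIP. AGGTCA, the repeat unit of the PPAR element, was in 12.1% of windows on either strand and in none of the 27 genes' windows. These matches describe letters in a short window and not sites in use. Whether the regulators that bind such letters had a part in either fall was not tested.

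ANGPTL4 (chr19:8363289-8374373, plus strand), a secreted inhibitor of lipoprotein lipase, had 16.4, 19.1 and 13.4 CPM in control samples and 1.51, 1.07 and 1.82 CPM with PERK siRNA. That was 258 to 356 reads in each control and 21 to 35 reads in each PERK siRNA sample. By edgeR's fitted fold it fell to 9.06% of control, an 11.04-fold difference (log2 fold change -3.46 with SE 0.18 and edgeR adjusted p = 1.1e-10). TXNIP (chr1:145992435-145996600, minus strand), an arrestin-family inhibitor of thioredoxin and of glucose uptake, had 73.9, 69.99 and 78.2 CPM in control samples and 48.3, 53.8 and 52.9 CPM with PERK siRNA, with no overlap (log2 fold change -0.52 with SE 0.05 and edgeR adjusted p = 1.5e-10). UCP2 (chr11:73974667-73983307, minus strand), a carrier of the inner mitochondrial membrane, had 31.4, 30.8 and 36.2 CPM in control samples and 48.1, 54.5 and 52.1 CPM with PERK siRNA. All PERK siRNA samples were above all controls (log2 fold change 0.65 with SE 0.06 and edgeR adjusted p = 3.1e-09). PDK2, a kinase that inhibits pyruvate dehydrogenase, had 43.3, 43.2 and 42.6 CPM in control samples and 54.4, 55.8 and 57.9 CPM with PERK siRNA (log2 fold change 0.38 with SE 0.04 and edgeR adjusted p = 3.2e-09). Its exons overlap those of SAMD14 over 38.6% of their bases, 59.8% of its reads were uniquely placed, and on those the log2 fold change was 0.34.

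PDK4 (chr7:95583499-95596491, minus strand), a related kinase often used as a PPAR readout, had 1.98, 2.15 and 1.81 CPM in control samples and 2.35, 2.35 and 1.61 CPM with PERK siRNA. The groups overlapped, with the lowest of the 6 values in a PERK siRNA sample (log2 fold change 0.09 with SE 0.21 and edgeR adjusted p = 0.73). PPARGC1A, the coactivator of mitochondrial gene expression, had 0.31, 1.07 and 0.78 CPM in control samples and 0.95, 0.77 and 0.88 CPM with PERK siRNA, from 6 to 20 reads a sample (log2 fold change 0.28 with SE 0.36 and edgeR adjusted p = 0.5). Its control samples spanned more than the PERK siRNA samples did. PPARGC1B, its relative, had 1.48, 1.23 and 1.60 CPM in control samples and 1.68, 1.84 and 1.87 CPM with PERK siRNA, which did not overlap, although the gene was not called (log2 fold change 0.32 with SE 0.23 and edgeR adjusted p = 0.21).

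**Figure D5:**
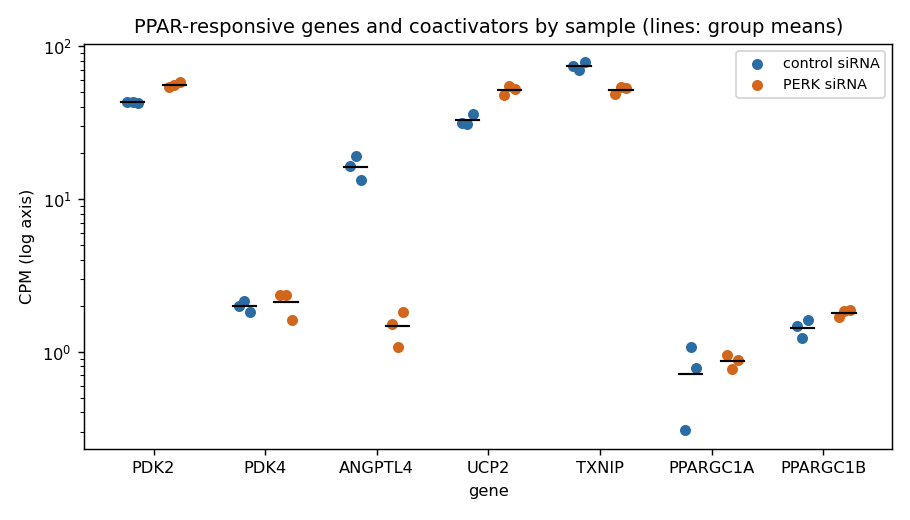
CPM in each sample on a log axis for the 7 PPAR-responsive genes and coactivators, with lines at group means. ANGPTL4 lies at 13.4 to 19.1 CPM in control samples and at 1.07 to 1.82 CPM with PERK siRNA, and PDK4 and PPARGC1A overlap between groups.

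Of 15 other known PPAR targets, 5 had enough reads to be tested, and 2 of them rose and 1 fell (60.0% called). FGF21 had no read in any sample. ACSL1, which activates long-chain fatty acids, rose from 11.5 ± 0.36 to 23.8 ± 0.35 CPM as mean ± SD of 3 samples (log2 fold change 1.05 with SE 0.07 and edgeR adjusted p = 3.0e-14). PLIN2, a coat protein of lipid droplets, fell from 26.6 ± 2.48 to 15.3 ± 1.19 CPM as mean ± SD of 3 samples (log2 fold change -0.79 with SE 0.07 and edgeR adjusted p = 1.7e-10). HILPDA, an inhibitor of droplet lipolysis, rose from 12.1 ± 0.30 to 16.02 ± 1.11 CPM as mean ± SD of 3 samples (log2 fold change 0.40 with SE 0.08 and edgeR adjusted p = 4.1e-05). Of the receptors, PPARA had 23.4, 24.2 and 21.95 CPM in control samples and 19.1, 18.1 and 17.01 CPM with PERK siRNA (log2 fold change -0.36 with SE 0.06 and edgeR adjusted p = 1.3e-05) and PPARD had 74.5, 69.1 and 74.9 CPM in control samples and 55.6, 57.8 and 57.7 CPM with PERK siRNA (log2 fold change -0.35 with SE 0.04 and edgeR adjusted p = 5.1e-09). Both fell without overlap, but PPARA did not pass the test against a 1.2-fold change (edgeR adjusted p = 0.054). PPARG, at 0.49 CPM in control samples and 0.36 CPM with PERK siRNA on average, was not tested.

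Among 20 tested receptors, partners and co-regulators, 10 rose and 6 fell (80.0% called, median 0.09). RXRA, the obligate partner of PPARs, rose from 38.4 ± 1.26 to 71.6 ± 2.89 CPM as mean ± SD of 3 samples (log2 fold change 0.90 with SE 0.04 and edgeR adjusted p = 2.4e-17). The coactivator NCOA3 fell from 117 ± 4.28 to 42.6 ± 1.16 CPM as mean ± SD of 3 samples (log2 fold change -1.45 with SE 0.04 and edgeR adjusted p = 1.8e-23). The acetyltransferase CREBBP (log2 fold change 0.45, SE 0.03) was higher.

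Pyruvate dehydrogenase, which competes with fatty acid oxidation to supply acetyl-CoA, is the enzyme that PDK2 and PDK4 inhibit. Of its subunits, other kinases and phosphatases, 7 of 10 fell and 2 rose (90.0% called, median -0.27). DLD, the dihydrolipoamide dehydrogenase, fell from 196 ± 4.24 to 132 ± 1.57 CPM as mean ± SD of 3 samples (log2 fold change -0.57 with SE 0.03 and edgeR adjusted p = 4.4e-17). DLAT, the acetyltransferase subunit, changed by -0.60 (SE 0.04) on the log2 scale. The phosphatase PDP2 fell from 21.95 ± 0.15 to 9.98 ± 0.79 CPM as mean ± SD of 3 samples (log2 fold change -1.13 with SE 0.07 and edgeR adjusted p = 4.6e-14), and PDPR, the phosphatase regulatory subunit, changed by 0.44 (SE 0.03).

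Of 10 tested glucose-sensing genes and TXNIP relatives, 2 rose and 6 fell (80.0% called, median -0.21). MLX, the partner of the glucose-responsive factors that act on TXNIP, changed by -0.51 (SE 0.04), with 74.3% of reads uniquely placed. TXN2, mitochondrial thioredoxin, changed by -0.38 (SE 0.04), FOXO3 by -0.26 (SE 0.04) and ARRDC1 by 0.43 (SE 0.07). Among 10 genes of the AMPK and sirtuin sensors, 5 rose and 2 fell (70.0% called, median 0.13). SIRT1 changed by 0.45 (SE 0.05), STK11 by 0.18 (SE 0.04) and PRKAG2 by -0.55 (SE 0.05). PRKAG1 changed by 0.37 (SE 0.06), but 1.41% of its reads were uniquely placed, so its value is uncertain. Over all these lists, 39 genes rose and 37 fell of 111 tested (68.5% called, median 0.05).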

How the data were processed

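Total RNA of the 6 LX-2 samples was purified with a column kit and made into libraries with a directional kit, per the labels' protocols. Reads refer to hg38, per the submitters' processing notes. The sources used here do not give the aligner, the counter or the use of strand in counting. Per the file headers, the authors deposited read counts for each gene (total exon reads, and unique ones) beside TPM. Total exon reads (17937141 to 19585872 per sample, 94.9 to 95.0% uniquely placed) were tested with edgeR 4.0.16 in R 4.3.3: TMM factors, filterByExpr, robust quasi-likelihood dispersion, and Benjamini-Hochberg adjustment over all 12973 genes kept. The SE is the absolute log2 fold change divided by the square root of the F statistic. CPM is a gene's reads per 1000000 reads of the genes kept, with the library scaled by its TMM factor. The floor alone is given per 1000000 total exon reads. The script was tested on simulated counts. Coordinates are from GENCODE v29, matched by gene ID, and promoters from RefSeq. The set and all lists were chosen with earlier results of these data known. Genes named outside the set were EIF2AK3, up to 4 called genes with the smallest adjusted p in each list, PPARA, PPARD, PPARG, ACOX2 and CPT1B, and markers; some genes that this rule names are not reported here. The ratios of gene pairs, 5 computed, and the sum without HADHB were chosen after values were seen. Alternatives were other scalings, filters and tests (DESeq2 1.42.0, limma-voom 3.58.1), unique reads, a replicate block and leaving out each sample.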

Additional observations from a re-analysis of the deposited data

How the results depend on the processing

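Of the other settings, 1 moved a count by over 1.5 times: tested against a 1.2-fold change, 4689 genes were called (2345 higher, 2344 lower) in place of 9014, 11 of the 30 tested genes of the set (7 higher, 4 lower) in place of 22, and 39 of 111 other pathway genes (20 higher, 19 lower) in place of 76. Across the 3 scalings, 2 filters, limma-voom, non-robust dispersion and unique reads, 22 genes of the set were called (15 higher, 7 lower), and with DESeq2 20. Leaving out 1 sample at a time gave 8543 to 8721 genes, 21 to 22 of the set and 73 to 76 other pathway genes. With the replicate number as a block, 9003 genes and 22 of the set were called, and no call in the set changed. Deviations from the group mean had r of 0.01, -0.03 and -0.03 for same-numbered samples, and -0.02 to 0.05 for differently numbered ones. No pairing by number was seen, but 3 samples a group cannot exclude a small shared effect. Leaving out 1 sample turned the sign of 4 uncalled genes (log2 fold change): CPT2 ranged from -0.0348 to 0.112 (lowest without control 2), PPARGC1A from -0.0923 to 0.678 (lowest without control 1), HSD17B4 from -0.0011 to 0.0358 (lowest without PERK siRNA 1) and PDK4 from -0.0030 to 0.25 (lowest without PERK siRNA 2); the cause was not tested. Calls lost otherwise were ECH1 and DECR1, given above. Of the genes named outside the set, PEX26, FOXO3, STK11 and PPARA lost their call when tested against a 1.2-fold change. Depth limits ACADL, PPARGC1A, PPARGC1B and PDK4 most, and 3 samples a group allow no exact p under 0.1.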
